A study of Mus musculus with 3 samples.

Results

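The 10 genes Ryr1, Ryr3, Cacna1s, Cacnb1, Cacng1, Stac3, Trdn, Casq2, Atp2a1 and Atp2a2 encode parts of the machinery of excitation-contraction coupling and of the calcium store of skeletal muscle. They were taken by gene symbol and were 10 of 23238 symbols in the count files. All 10 were among the 13169 genes that reached 1 CPM (a count scaled to the TMM-adjusted library total) in at least 1 library. RNA was sequenced from c2c12 cells, an immortalized mouse myoblast line that fuses into myotubes when the serum is lowered. The cells had spent 2 days in myogenic induction medium with horse serum on a tissue culture plate (TCP), on a hydrogel of 15% methacrylated gelatin (GelMA), or on the same 15% GelMA carrying 1% of poly(sodium-4-styrenesulfonate), a negatively charged polymer that mimics heparin (GelMA-PSS). Each substrate had 1 library, so the differences between substrates could not be set against replicate error and no test was run. Intervals are 95% Wilson intervals on the counts and cover counting error only. Values in threes are in the order TCP, GelMA, GelMA-PSS.

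In a muscle fibre the action potential runs down the T-tubules, where a voltage-gated calcium channel of the surface membrane faces the calcium release channel of the sarcoplasmic reticulum. In skeletal muscle the voltage sensor opens the release channel by mechanical contact, calcium leaves the store and the sarcomeres contract. Calcium pumps then return the ion to the reticulum, where calsequestrin holds it at high capacity. Myoblasts have little of this machinery, and it is assembled as they differentiate and fuse.

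Promoter sequence is shown first, because the genes are switched on together in differentiating muscle and the myogenic bHLH factors bind E-boxes, spelled CANNTG and the same on both strands. RefSeq windows (GRCm38.p6) of 250 bases before a transcription start were found for 5 of the 10 genes: Ryr1, Cacna1s, Cacnb1 (with 2 starts), Atp2a1 and Casq2. The stretches below leave out bases that GENCODE places inside the gene, and capitals mark the E-boxes.
Ryr1, chr7:29125180-29125401, minus strand: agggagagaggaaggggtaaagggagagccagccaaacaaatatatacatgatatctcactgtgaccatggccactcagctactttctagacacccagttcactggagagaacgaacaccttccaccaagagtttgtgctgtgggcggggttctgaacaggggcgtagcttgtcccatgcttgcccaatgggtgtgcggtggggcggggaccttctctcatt
Cacna1s, chr1:136052561-136052749, plus strand: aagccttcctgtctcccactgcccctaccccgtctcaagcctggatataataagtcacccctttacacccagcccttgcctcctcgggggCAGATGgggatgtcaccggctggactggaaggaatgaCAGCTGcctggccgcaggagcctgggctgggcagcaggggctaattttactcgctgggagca
Atp2a1, chr7:126463109-126463323, minus strand: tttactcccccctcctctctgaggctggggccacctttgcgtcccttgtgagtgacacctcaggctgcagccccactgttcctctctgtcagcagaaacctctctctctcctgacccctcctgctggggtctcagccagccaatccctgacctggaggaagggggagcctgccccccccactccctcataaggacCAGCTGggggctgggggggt
Casq2, chr3:102086165-102086414, plus strand: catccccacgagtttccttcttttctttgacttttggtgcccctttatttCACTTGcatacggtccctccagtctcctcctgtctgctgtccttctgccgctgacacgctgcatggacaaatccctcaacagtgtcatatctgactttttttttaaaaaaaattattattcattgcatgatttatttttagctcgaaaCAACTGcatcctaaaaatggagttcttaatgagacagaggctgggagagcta
Cacna1s had 2 E-boxes, which began 160 and 123 bases before the start, and Atp2a1 had 1, at 55 bases. The E-box nearer the start of Cacna1s and the E-box of Atp2a1 were both CAGCTG, a form that 13% of all 32851 mouse promoter windows held. The window of Casq2 held 2 E-boxes, at 200 and 52 bases, and a MEF2 box at 69 bases, which 2.92% of all windows held. Both windows of Cacnb1 lie inside the gene as GENCODE places it and are not printed. That of the start further downstream had 1 E-box, 27 bases before it, and the other had none. Ryr1 had none in its window. Any E-box was present in 66.2% of all windows, so an E-box match is common and describes the sequence only. No CArG box (in 1.47% of all windows) and no TATAAA (12.4%) was found in the windows of these 5 genes.

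On TCP the levels spanned from 56.1 CPM for Ryr3 to 1608 CPM for Casq2. In GelMA-PSS all 10 genes were lower than in TCP, as were 47.2% of all genes tested, and in GelMA all 10 were lower than in TCP, as were 51.7% of all genes tested. Of the 10 genes, 8 had the order TCP above GelMA above GelMA-PSS, an order that 21.2% of all genes had. The 2 exceptions were Cacng1 and Stac3, whose GelMA-PSS level lay between those of the controls. In bulk RNA, fewer cells of a type and less RNA per cell cannot be told apart.

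**Figure D1:**
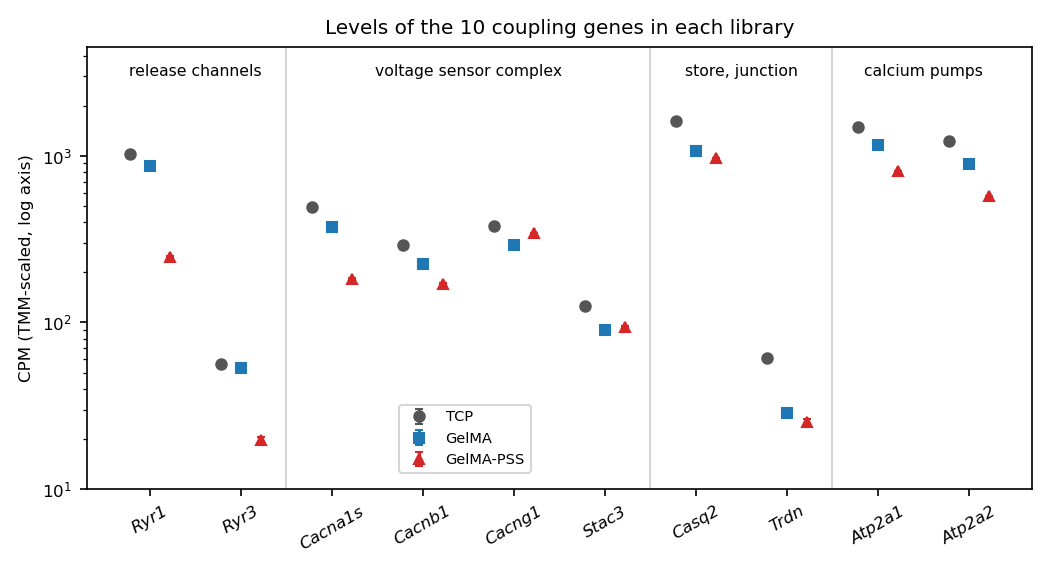
CPM (log axis) of the 10 genes in the TCP (grey circles), GelMA (blue squares) and GelMA-PSS (red triangles) libraries, grouped by role; bars are 95% counting intervals and are mostly smaller than the symbols. The red triangle is the lowest symbol for 8 genes and the middle one for Cacng1 and Stac3, and the largest gap is that of Ryr1, from 1023 CPM in TCP to 248 CPM in GelMA-PSS.

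The voltage sensor is built around Cacna1s, the pore-forming and voltage-sensing subunit of the skeletal L-type channel (chr1:136052750-136119822, GRCm38). Cacna1s stood at 489.5 CPM (486 to 493) in TCP, 375 (371 to 379) in GelMA and 182 (179.9 to 184) in GelMA-PSS. The 3 libraries did not overlap in their counting intervals, and GelMA-PSS was the lowest. On the scale of log2(CPM + 1), Cacna1s differed by -1.04 between GelMA-PSS and GelMA, by -1.42 between GelMA-PSS and TCP, and by -0.38 between GelMA and TCP. Cacnb1, the intracellular beta subunit that brings the channel to the membrane (chr11:98001508-98023034), stood at 292 CPM in TCP, 225 in GelMA and 170.0 in GelMA-PSS. Its log2 differences were smaller than those of Cacna1s against the same controls, -0.40 to GelMA and -0.77 to TCP. Cacng1, the gamma subunit of the skeletal channel (chr11:107703218-107716522), stood at 379 CPM (376 to 383) in TCP, 291 (287 to 294) in GelMA and 342 (339.7 to 345) in GelMA-PSS. GelMA was its lowest library, and GelMA-PSS was above GelMA by 0.23 and below TCP by a log2 difference of -0.15. Stac3, an adaptor protein that binds the channel and is needed for coupling in skeletal muscle (chr10:127501686-127508823), stood at 125 CPM (123 to 127) in TCP, 90.5 (88.5 to 92.5) in GelMA and 94.1 (92.7 to 95.6) in GelMA-PSS. The intervals of Stac3 in GelMA and GelMA-PSS did not overlap but lay within a log2 difference of 0.06. The sign of Cacng1 and of Stac3 against GelMA turned to lower after correction for transcript length and GC content (-0.13 and -0.16). It also turned with TPM (-0.23 and -0.41), a scaling that moved the median of all genes by -0.40, and for Stac3 with library totals (-0.09, with the median of all genes moved by -0.13).

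The proportions between subunits of the same channel differed in GelMA-PSS. Expressed as CPM per kilobase of transcript, Cacng1 was 3.88 times Cacna1s in TCP, 3.89 times in GelMA and 9.43 times in GelMA-PSS. Cacnb1 was 1.67, 1.68 and 2.61 times Cacna1s in the same order, and Stac3 0.894, 0.843 and 1.81 times. As measured, both controls gave nearly the same proportions and GelMA-PSS stood apart. The transcript of Cacna1s (6251 bases) is longer than those of Cacnb1 (2236), Stac3 (1790) and Cacng1 (1249). Corrected for length and GC content, the log2 differences to GelMA were -0.55 for Cacna1s, -0.43 for Cacnb1, -0.16 for Stac3 and -0.13 for Cacng1. Most of the shift in these proportions against GelMA was thus lost. Against TCP the corrected differences were -1.06 for Cacna1s, -0.76 for Cacnb1, -0.58 for Stac3 and -0.44 for Cacng1. The shift against TCP was smaller than measured, but more of it remained than against GelMA. Of 14 other channel subunits and relatives 6 were tested, and none passed 2-fold in any comparison. Cacna2d1, the alpha2delta subunit of the skeletal channel, stood at 282, 238 and 144 CPM. The cardiac counterpart Cacna1c was low, with 0.493, 0.682 and 0.414 CPM, and the paralogs Stac and Cacnb4 were below 1 CPM in each library. Cacnb2 (1.27, 2 and 1.07 CPM) and Cacng6 (2.7, 2.77 and 1.67 CPM) were also low. Cacnb3 (148, 126 and 119.8 CPM) and Stac2 (104, 119 and 140.3 CPM) were the beta and Stac paralogs with appreciable levels. In GelMA-PSS, Stac2 was above both controls, by 0.23 to GelMA and 0.42 to TCP, whereas Stac3 was lower than in TCP.

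Ryr1, the calcium release channel of skeletal muscle (chr7:29003344-29125179), had the largest differences of the 10 genes in GelMA-PSS. It stood at 1023 CPM (1017 to 1029) in TCP, 868 (862 to 874) in GelMA and 248 (246 to 251) in GelMA-PSS. The controls lay close together and GelMA-PSS far below, with log2 differences of -1.80 to GelMA, 3.49-fold lower, and -2.04 to TCP, 4.11-fold lower. Ryr3, a second release channel of developing muscle (chr2:112631355-113217096), stood at 56.1 CPM (54.7 to 57.4) in TCP, 53.3 (51.9 to 54.9) in GelMA and 19.8 (19.2 to 20.4) in GelMA-PSS. Its intervals in TCP and GelMA overlapped, and its log2 differences in GelMA-PSS were -1.39 to GelMA and -1.46 to TCP. Ryr2, the cardiac release channel, was at 1.4, 1.58 and 0.8 CPM, so the ryanodine receptor RNA was mainly Ryr1. Per kilobase, Ryr1 was 0.854 times Cacna1s in TCP, 0.947 times in GelMA and 0.558 times in GelMA-PSS. After correction for length and GC content both genes differed from GelMA by -0.55, so the change in this proportion against GelMA was lost. Against TCP the corrected differences were -1.16 for Ryr1 and -1.06 for Cacna1s, so little of the change remained.

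Casq2 (chr3:102086415-102146514) encodes the calsequestrin known from heart, which young skeletal muscle also makes, and was the most abundant of the 10 genes per kilobase in each library. It stood at 1608 CPM (1601 to 1615) in TCP, 1064 (1058 to 1071) in GelMA and 972 (967 to 976) in GelMA-PSS. The larger step was between TCP and GelMA (-0.60), and GelMA-PSS was below GelMA by only a log2 difference of -0.13. Trdn (chr10:33080554-33476709) encodes triadin, which anchors calsequestrin to the release channel at the junction. It stood at 60.8 CPM (59.4 to 62.2) in TCP, 28.7 (27.7 to 29.9) in GelMA and 25.4 (24.7 to 26.2) in GelMA-PSS. Both hydrogels were thus below TCP, by -1.05 for GelMA and -1.23 for GelMA-PSS, while they differed from each other by -0.17. Trdn was the only gene of the 10 more than 2-fold lower in GelMA than in TCP.

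The pumps of the reticulum were abundant. Atp2a1, the fast-fibre pump (chr7:126445858-126463108), stood at 1486 CPM (1479 to 1493) in TCP, 1162 (1155 to 1169) in GelMA and 809 (805 to 813) in GelMA-PSS. GelMA was below TCP by a log2 difference of -0.35, and GelMA-PSS below GelMA by -0.52 and below TCP by -0.88. Atp2a2, the pump of slow and cardiac muscle, which non-muscle cells also use (chr5:122453513-122502225), stood at 1222 CPM (1216 to 1228) in TCP, 892 (886 to 898) in GelMA and 572 (568 to 575) in GelMA-PSS. Its log2 differences in GelMA-PSS were -0.64 to GelMA and -1.09 to TCP. The paralog Atp2a3 was at 1.37, 1.67 and 1.12 CPM. Of 7 listed regulators of these pumps, 4 symbols were found and 2 were tested. Among the small peptides that restrain the pumps, Pln was low (0.222, 0.231 and 0.348 CPM) and Sln had 8, 0 and 18 counts. Mrln, the myoregulin gene, was at 9.8, 7.58 and 11.1 CPM, with its highest level in GelMA-PSS. After the correction for transcript length and GC content described below, Mrln was lower there, at -0.22 to GelMA and -0.48 to TCP, so its difference in direction from the pumps was lost. The other tested regulator, 1810037I17Rik, was also highest in GelMA-PSS (24.6, 25.2 and 51.3 CPM). It stayed above both controls after the correction, at 0.48 to GelMA and 0.61 to TCP, opposite in direction to the pumps.

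Ranked per kilobase, Casq2 led in all 3 libraries and Ryr3 was last, with Trdn next to last. Casq2 was at 661 CPM per kilobase in TCP and Ryr3 at 3.64. In GelMA-PSS, Cacng1 (274 CPM per kilobase) stood above Atp2a1 (233), whereas in TCP it stood below it (304 against 427). Stac3, Cacna1s and Ryr1 also changed places. Their order was Cacna1s (78.3), Stac3 (70) and Ryr1 (66.9) in TCP, and Stac3 (52.6), Cacna1s (29.1) and Ryr1 (16.2) in GelMA-PSS. With 1 library per substrate the spread behind these neighbouring ranks is unknown.

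Against GelMA, 3 of the 10 genes (Ryr1, Ryr3 and Cacna1s) were more than 2-fold lower in GelMA-PSS, compared with 2.33% of all genes tested. None was more than 2-fold higher, compared with 1.77% of all genes. Against TCP, 5 genes were more than 2-fold lower in GelMA-PSS, the same 3 with Atp2a2 and Trdn, compared with 3.13% of all genes, and none was more than 2-fold higher (3.72% of all genes). Between GelMA and TCP, 1 gene, Trdn, was more than 2-fold lower (0.296% of all genes) and none was more than 2-fold higher (0.706%). The 3 genes that lay more than 2-fold under both controls in GelMA-PSS compare with 1.16% of all genes, and the 8 lower than both by any amount with 39.3%. These comparisons share libraries and are not independent. The median log2 difference of the 10 genes was -0.46 for GelMA-PSS against GelMA, -0.99 for GelMA-PSS against TCP and -0.38 for GelMA against TCP, beside 0.03, 0.04 and -0.01 for all genes tested.

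**Figure D2:**
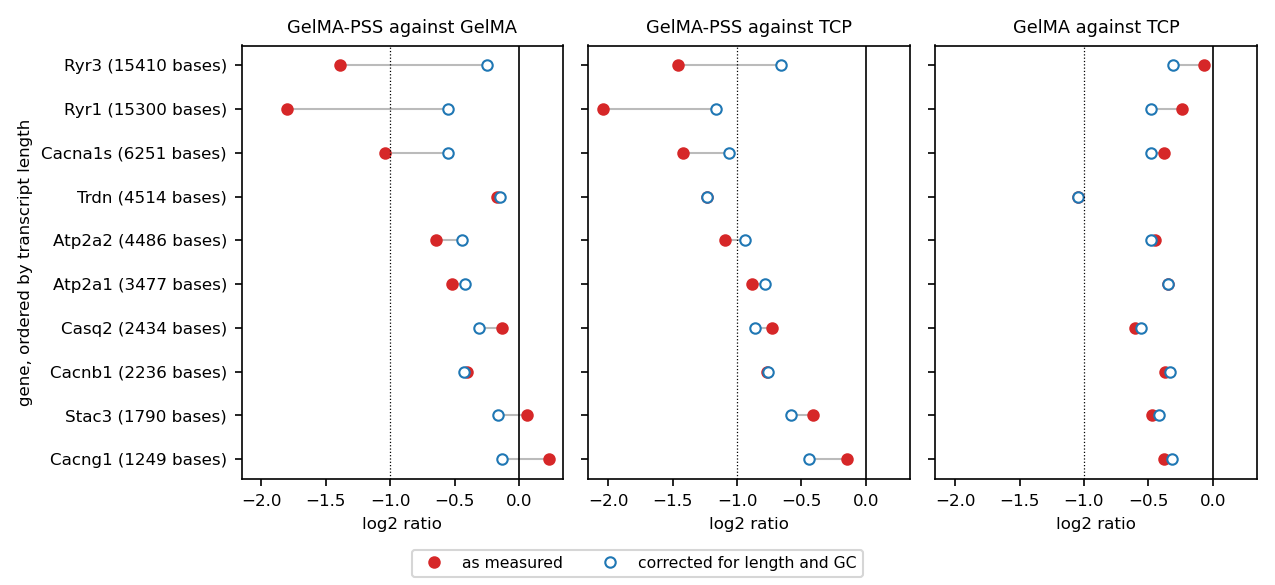
Log2 differences of the 10 genes, ordered from the longest transcript (top) to the shortest, for GelMA-PSS against GelMA, GelMA-PSS against TCP and GelMA against TCP; filled red symbols are as measured and open blue symbols after correction for transcript length and GC content, and the dotted line marks a 2-fold lower level. In the left and middle panels the red symbols run from far left at the long transcripts to near 0 at the short ones, and the open symbols lie between -0.55 and -0.13 on the left and between -1.23 and -0.44 in the middle.

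The size of the difference in GelMA-PSS ran with the length of the transcript. Over the 10 genes, the log2 difference and the transcript length had a Spearman correlation of -0.89 for GelMA-PSS against GelMA and -0.98 against TCP, which is a description over 10 genes of the same libraries. Over all 13055 tested genes with a transcript length the values were -0.66 and -0.50, so long transcripts in general were lower in GelMA-PSS. For GelMA against TCP the relation had the other sign, 0.37 over the 10 genes and 0.21 over all genes. Genes whose transcript was within 20% of the length of Ryr1 (93 genes) had a median log2 difference of -1.11 for GelMA-PSS against GelMA, and 1.08% of them lay below the -1.80 of Ryr1. For Ryr3 the median of 90 genes of like length was also -1.11, and 20% of them lay below its -1.39. Trdn, at -0.17, lay next to the median of its 2778 genes of like length, -0.19. For Cacna1s the 1660 genes of like length had a median of -0.41, and 2.83% lay below its -1.04. The short Cacng1 and Stac3 lay below their own length classes too, at 0.23 and 0.06 where genes of like length had medians of 0.43 and 0.29. The origin of the length relation was not tested, and with 1 library per substrate the substrate and the library cannot be told apart.

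**Figure D3:**
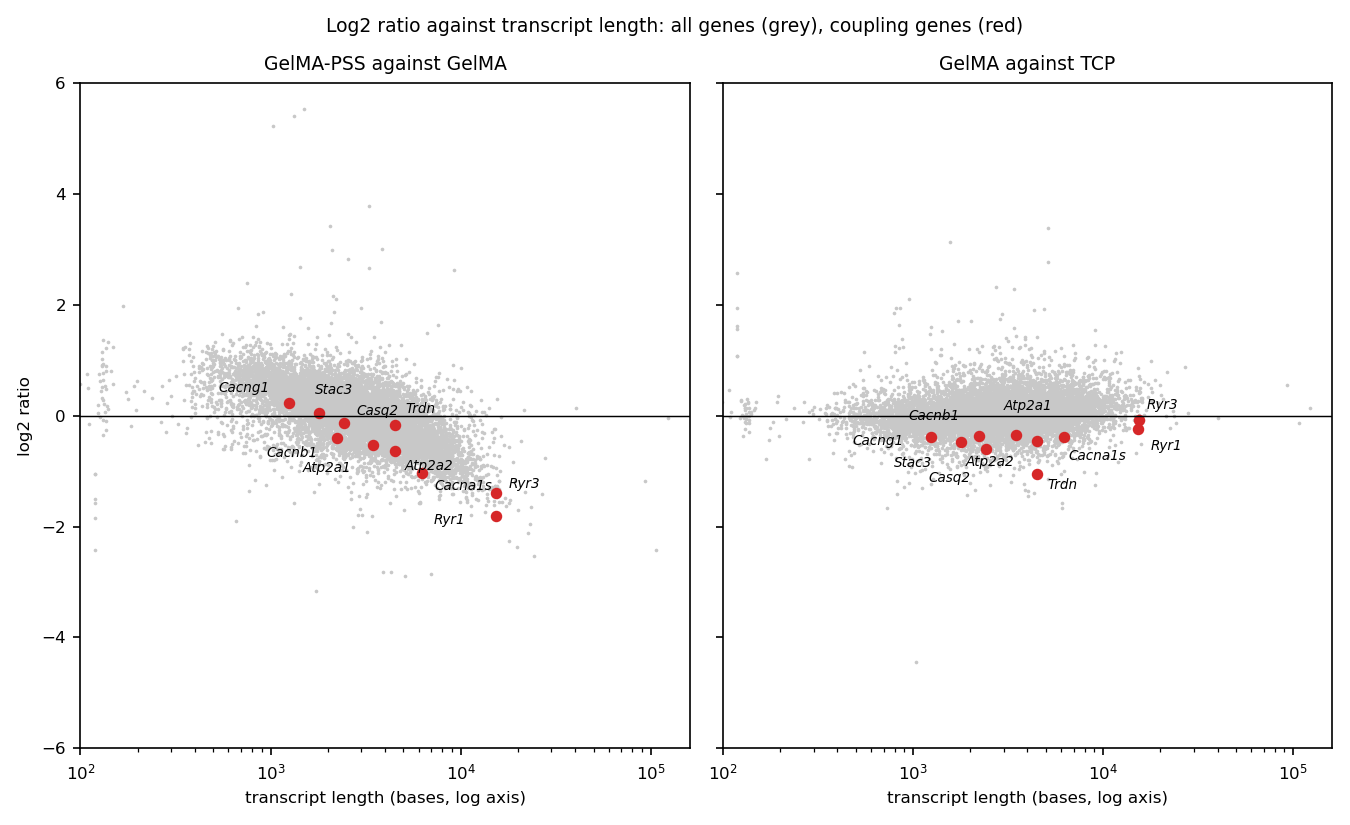
Log2 difference against transcript length in bases (log axis) for all tested genes with a length (grey points) and the 10 coupling genes (red), for GelMA-PSS against GelMA (left) and GelMA against TCP (right). On the left the grey cloud slopes downward with length (Spearman -0.66) and most red points lie in its lower part, with Ryr1 lowest at -1.80; on the right the cloud rises slightly (0.21) and Trdn lies lowest of the red points at -1.05.

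After a smooth curve on transcript length and then on GC content was taken off each comparison, GelMA-PSS lay below GelMA and TCP for all 10 genes, compared with 40.7% of all genes. The corrected log2 differences to GelMA ran from -0.55 for Ryr1 and Cacna1s to -0.13 for Cacng1, a width of 0.42 where the measured values had a width of 2.04. Against GelMA none of the 10 remained more than 2-fold lower (1.2% of all genes were). Against TCP, Trdn (-1.23), Ryr1 (-1.16) and Cacna1s (-1.06) remained so, compared with 2.39% of all genes, and Atp2a2 (-0.94) and Ryr3 (-0.66) did not. Cacng1 was the least different there, at -0.44. For GelMA against TCP the corrected values of all 10 were below 0, as for 50.8% of all genes, and Trdn alone remained more than 2-fold lower, with -1.05 (0.26% of all genes). The corrected medians of the 10 genes were -0.36, -0.82 and -0.45 for GelMA-PSS against GelMA, GelMA-PSS against TCP and GelMA against TCP, where those of all genes were at 0.

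Ratios between genes of like transcript length within a library carry no scaling factor. Ryr1 (15300 bases) and Ryr3 (15410 bases) gave 18.2 counts of Ryr1 for each count of Ryr3 in TCP, 16.3 in GelMA and 12.5 (12.1 to 13) in GelMA-PSS. Ryr1 was thus 94.8%, 94.2% and 92.6% (92.4 to 92.8) of the counts of both, so Ryr1 was lower relative to Ryr3 in GelMA-PSS. Atp2a2 (4486 bases) and Trdn (4514 bases) gave 20.1 counts of Atp2a2 for each of Trdn in TCP (19.6 to 20.6), 31 in GelMA (29.8 to 32.3) and 22.5 in GelMA-PSS (21.8 to 23.2). Here GelMA stood apart and GelMA-PSS lay nearer to TCP. Casq2 and Cacnb1, which differ by 8.86% in length, gave 5.51, 4.73 and 5.72 counts of Casq2 for each of Cacnb1. These 3 pairs are all the pairs of the 10 genes whose lengths differ by less than 10%. They are not matched in GC content, and these ratios were not corrected for it. It was 57.8% for Ryr1 and 48.8% for Ryr3, and 50.8% for Atp2a2 and 36.8% for Trdn. For Casq2 it was 46.7% and for Cacnb1 61.2%.

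Between the pumps, Atp2a1 was 54.9% (54.7 to 55) of the summed Atp2a1 and Atp2a2 counts in TCP, 56.6% (56.4 to 56.8) in GelMA and 58.6% (58.4 to 58.8) in GelMA-PSS. Per kilobase the shares were 61.1%, 62.7% and 64.6%. The fast-fibre pump therefore made up the larger share in each library, with the largest share in GelMA-PSS. The transcript of Atp2a1 (3477 bases) is the shorter of the pair. After correction the 2 genes in GelMA-PSS differed from GelMA by -0.42 (Atp2a1) and -0.44 (Atp2a2). From TCP they differed by -0.78 (Atp2a1) and -0.94 (Atp2a2), so Atp2a2 was still the lower there. Casq1, the calsequestrin of adult fast muscle, was at 112, 76 and 79.9 CPM and made up 6.53% (6.43 to 6.64) of the Casq1 and Casq2 counts in TCP, 6.66% (6.51 to 6.82) in GelMA and 7.6% (7.48 to 7.72) in GelMA-PSS. The shares of TCP and GelMA overlapped in their counting intervals and that of GelMA-PSS was higher. Casq2 still exceeded Casq1 by 14.3, 14 and 12.2 times in counts.

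**Figure D4:**
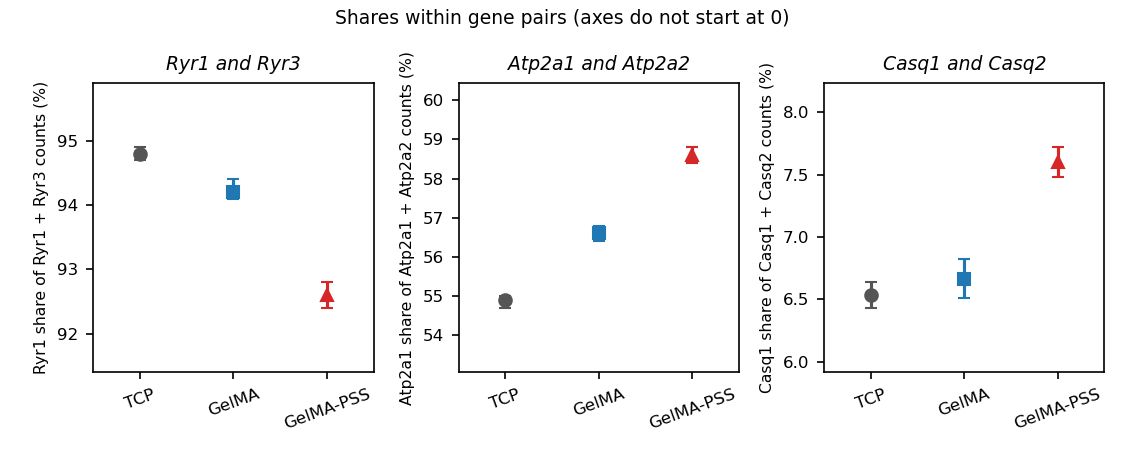
Share of Ryr1 in Ryr1 and Ryr3 counts, of Atp2a1 in Atp2a1 and Atp2a2 counts, and of Casq1 in Casq1 and Casq2 counts, in percent, per library; bars are 95% Wilson intervals and the axes do not start at 0. Ryr1 has its lowest share in GelMA-PSS (92.6%), Atp2a1 its highest there (58.6%), and Casq1 its highest there (7.6%) above near-equal controls.

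The paralogs differ enough in sequence for reads to separate them. The longest run of identical bases in the coding sequences of each pair, read from the GENCODE transcripts, is shown because a read lying wholly inside such a run could not be assigned.
Atp2a1 and Atp2a2, 44 bases: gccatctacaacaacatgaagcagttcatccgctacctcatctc
Ryr1 and Ryr3, 30 bases: ggaagacatggagaccaagtgcttcatctg
Casq1 and Casq2, 25 bases: acgatgacgatgatgatgacgacga
Each run was shorter than the read length that the methods give. The run of the calsequestrins lies in the reading frame of both genes and its 7 whole codons are all aspartate codons (gac or gat), the acidic residue whose clusters hold calcium in these proteins. In windows of the length of a read, 13.9% of the Atp2a1 transcript was also found on the opposite strand in Rabep2, and 13.4% of Cacna1s in the antisense gene Gm37759. The corresponding values were 4.85% for Ryr3 (Aven), 1.92% for Atp2a2 (Gm30970, same strand) and 1.51% for Ryr1 (Gm26604), and 0 for the other 5 genes. Whether the counting used the strand is not given in the sources used here, so reads there cannot be assigned with certainty. Rabep2 was at 27, 26.8 and 31.2 CPM, where Atp2a1 was at 809 or more in each library.

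Other proteins of the junction showed a similar direction in part. Of 14 junction and T-tubule genes, 13 were tested, none was more than 2-fold lower in GelMA-PSS than in GelMA and 3 were more than 2-fold lower than in TCP (3.13% of all genes were): Jph1 (79, 57.3 and 37 CPM), which ties the T-tubule to the reticulum, Dysf (215, 171 and 89.1 CPM), a membrane repair protein, and Sypl2 (3.75, 1.72 and 1.05 CPM), a triad membrane protein. After correction Sypl2 remained so (-1.09) and Jph1 (-0.92) and Dysf (-0.84) did not. Cav3, the caveolin-3 gene (70.5, 47.2 and 41.3 CPM), was at -0.76 to TCP as measured and passed 2-fold after correction, at -1.07. Over all genes, 2.39% were more than 2-fold lower than in TCP after correction. The abundant junction genes Bin1, which shapes T-tubules (2230.0, 1510.1 and 1613 CPM), and Jph2 (403, 355 and 252 CPM) stayed within 2-fold. Fkbp1a, the small protein that stabilizes the closed release channel, stood at 237, 242 and 314 CPM. Its log2 differences in GelMA-PSS were 0.37 to GelMA and 0.40 to TCP as measured, and 0.05 and 0.16 after correction. The corrected median of the list was -0.18 to GelMA and -0.30 to TCP, nearer to 0 than those of the 10 genes. Among 9 genes of the reticulum lumen and membrane, none passed 2-fold in GelMA-PSS as measured. The highest means over the 3 libraries were those of the general chaperones Calr (764, 715 and 806 CPM) and Hspa5 (694, 615 and 687 CPM). Of the muscle members, Hrc (264, 173 and 136 CPM), a calcium-binding protein of the lumen, and Srl (813, 643 and 415 CPM), which encodes sarcalumenin, were lowest in GelMA-PSS. Against TCP, Hrc went from -0.96 to -1.03 after correction, past 2-fold, and Srl from -0.97 to -0.76.

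Of 9 genes of store-operated calcium entry 7 were tested and none passed 2-fold in any comparison. Stim1, the sensor of store calcium, stood at 67, 52 and 36.4 CPM and Orai1, the channel it opens, at 32.4, 20.7 and 19.3 CPM, while Saraf (102, 89.5 and 102 CPM) and Stim2 (84.3, 84.9 and 77 CPM) were the most abundant. Among 12 other release channels, exchangers and pumps, 11 were tested. Slc8a1, the sodium-calcium exchanger, lay more than 2-fold under both controls in GelMA-PSS (11.3, 12.2 and 5.09 CPM), compared with 1.16% of all genes. It remained so after correction, at -1.15 to GelMA and -1.04 to TCP. Itpr1, an inositol trisphosphate receptor, was also more than 2-fold lower than in GelMA as measured (13.3, 16.4 and 6.65 CPM), compared with 2.33% of all genes. Its difference went from -1.18 to -0.40 after correction. Itpr3 (261, 290.2 and 174 CPM) and Atp2b1, a surface calcium pump (217, 229 and 199.9 CPM), were the most abundant of this list. Atp2b4 was the exception in direction, at 42.9 CPM in TCP, 95.2 in GelMA and 84.6 in GelMA-PSS, more than 2-fold higher in GelMA than in TCP as measured and at 0.94 after correction. The corrected medians of this list were -0.03 to GelMA and 0.01 to TCP.

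**Figure D5:**
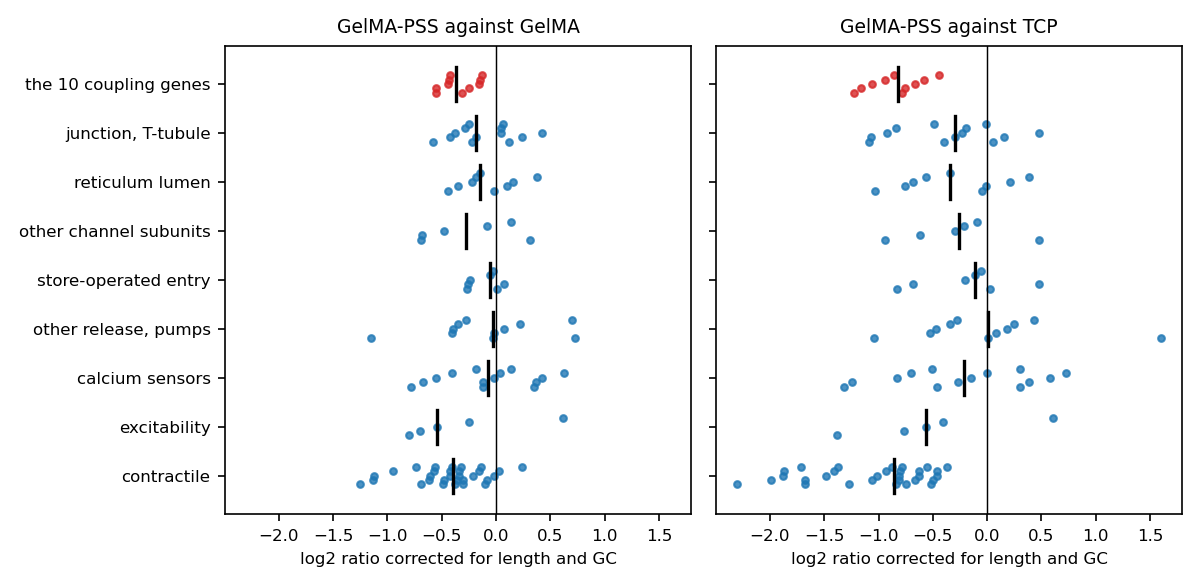
Log2 differences after correction for transcript length and GC content of the 10 coupling genes (red) and of 8 other lists (blue), for GelMA-PSS against GelMA and against TCP; each point is a gene and black bars are medians. The medians of the 10 genes (-0.36 and -0.82) lie close to those of the contractile genes (-0.39 and -0.86), and those of other release channels and pumps lie near 0 (-0.03 and 0.01).

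The contractile genes, which fibres assemble in the same period, were used as a reference. All 30 were tested, with medians of -0.14 for GelMA-PSS against GelMA, -0.68 for GelMA-PSS against TCP and -0.56 for GelMA against TCP, and corrected medians of -0.39, -0.86 and -0.53. After correction 5 of the 10 coupling genes lay below the contractile median in each comparison with GelMA-PSS, and 2 did so for GelMA against TCP. Of the 30 contractile genes, 9 lay more than 2-fold under both controls in GelMA-PSS: the myosin heavy chains Myh1, Myh2, Myh3, Myh4, Myh7 and Myh8, with Mybpc1, Ttn and Neb. Over all genes tested the share was 1.16%. After correction Myh2, Myh4 and Mybpc1 remained more than 2-fold under both controls, the other 6 did not, and the value of Ttn against GelMA turned to 0.24. Their transcripts run from the 3752 bases of Mybpc1 to the 106824 bases of Ttn. The embryonic Myh3 stood at 10182, 6355 and 3037 CPM, whereas Mylpf, a short light chain gene, stood at 6926, 4853 and 7158 CPM.

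The libraries carried the RNA of differentiating myoblasts. Myog, the regulator of terminal differentiation, stood at 1099.9, 895 and 1037 CPM. Des stood at 3299, 2863 and 3154 CPM and Myod1 at 94.3, 105 and 119 CPM. As measured, these markers did not share the difference seen in Ryr1, whose transcript is longer than theirs. After correction Myog, Des and Myod1 in GelMA-PSS were at -0.32, -0.02 and 0.23 to TCP. The median of the 11 myogenic markers was -0.09 to TCP as measured and -0.41 after correction. Acta1, the skeletal actin, stood at 6192, 5379 and 5059.6 CPM. Mef2c, a regulator of muscle genes, lay more than 2-fold under both controls in GelMA-PSS as measured (289, 181 and 81 CPM). After correction it was at -0.85 to GelMA and -1.61 to TCP, so the call against GelMA was lost. Myf5, a factor of undifferentiated myoblasts, was highest in GelMA-PSS (13.9, 19.5 and 36.5 CPM). Of 9 cardiac markers 5 were tested, and Myh6 (457, 144 and 48.4 CPM) and Myl2 (41.8, 12.5 and 8.21 CPM) were highest in TCP, while Myl7 was at 0 and Nkx2-5 below 0.3 CPM in each library. Nppb, a low natriuretic peptide gene, was more than 2-fold above both controls in GelMA-PSS as measured (1.56, 1.44 and 4.89 CPM), and at 0.64 to GelMA and 0.67 to TCP after correction, within 2-fold. Endothelial markers summed to 1.83 to 3.59 CPM, blood markers to 1.62 to 1.86, neural markers to 3.84 to 6.75, epithelial markers to 8.24 to 14.3 and adipocyte markers to 0.0221 to 0.0985. Lep and Hbb-bs were at 0 and Pecam1, Ptprc and Epcam had at most 13 counts in each library. Each library summed to between 87071144 and 192171443 counts, with GelMA-PSS the deepest, and 3 counts corresponded to 0.0166 to 0.033 CPM, so each of the 10 genes was far above the detection limit.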

How the data were processed

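The authors deposited unnormalized read counts, listed by gene symbol, of 3 RNA-seq libraries. Per the methods, reads were paired and strand-specific. The labels and the methods name different library kits, so the kit is uncertain. The submitters' processing notes name TopHat, edgeR and the builds mm10 and hg19 without a role, and the counting tool and annotation are not given in the sources used here. If mates of a pair were counted separately, the counting intervals understate the error. From the files, 23282 lines were summed to 23238 symbols (35 symbols stood on more than 1 line). Counts were scaled to CPM with TMM factors (edgeR 4.0.16 in R 4.3.3), with factors of 1.02 (TCP), 1.04 (GelMA) and 0.943 (GelMA-PSS). CPM replaced the FPKM of the methods, which was not used here. Comparisons are differences of log2(CPM + 1), which understate changes of low genes, over genes that reached 1 CPM in any library. Called means past 2-fold. No test was possible with 1 library per substrate. The fold calls and the correction were run on simulated Poisson counts, scaled by a median ratio in place of TMM. The simulated data had a dependence on length but none on GC content, so they did not test the TMM scaling or the GC step. Lengths, GC content and overlaps came from GENCODE vM21 (GRCm38), using for each gene the basic transcript with the longest coding sequence, which matched 22197 symbols directly and 648 through older names. The length and GC correction used loess with a span of 0.3 (statsmodels 0.14.6). The 10 genes and the other lists were chosen with earlier results of these data known, so no list is independent evidence. Of each other list, genes past 2-fold in the same direction in GelMA-PSS against both controls and the 2 most abundant genes were to be named, with paralogs of the 10 genes; the other genes named were chosen after their values were seen. Some genes of the other lists are not reported here. Alternatives were other scalings, pseudocounts, thresholds and the length and GC correction.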

Additional observations from a re-analysis of the deposited data

How the results depend on the processing

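No paired analysis was possible because each substrate has 1 library, and no library could be left out for the same reason. A difference between 2 libraries cannot be told apart from a difference between their preparations. The number of the 10 genes past the threshold in GelMA-PSS against GelMA, 3 as reported (4.1% of all genes in either direction), was 1 at a 3-fold threshold (0.463%) and 0 once length and GC content were corrected for (1.87%). Against TCP, 5 as reported (6.85%), it was 8 at a 1.5-fold threshold (24.7%), 1 at 3-fold (1.07%), 8 with TPM (9.41%) and 3 after the correction (4.4%). For GelMA against TCP, 1 as reported (1%), it was 2 at 1.5-fold (5.62%) and 0 at 3-fold (0.175%), with a pseudocount of 5 (0.342%) and with TPM (0.974%). Over all genes, GelMA-PSS against GelMA had 307 lower and 233 higher as reported, 506 and 120 with library totals, and 1040 and 41 with TPM, and GelMA-PSS against TCP had 412 and 490 as reported, 576 and 338 with library totals, and 1049 and 148 with TPM. The medians of the 10 genes for GelMA-PSS against GelMA, GelMA-PSS against TCP and GelMA against TCP were -0.61, -1.09 and -0.35 when scaled by library totals, -0.93, -1.40 and -0.33 with TPM, and -0.36, -0.82 and -0.45 after the correction. Library totals shifted the median of all genes by -0.13, -0.10 and 0.04, and TPM by -0.40, -0.36 and 0.05, so their medians are to be read against those shifts. The share of Atp2a1 per kilobase was 61.1%, 62.7% and 64.6% in TCP, GelMA and GelMA-PSS. Of the 30 single differences, 29 kept their sign with library totals, 28 with TPM and 28 after the correction, and the exceptions were Stac3 and Cacng1 against GelMA. Of the 9 past 2-fold, 8 remained so with a pseudocount of 5, 8 with TPM and 4 after the correction. With a pseudocount of 0.1, with the median of ratios and with the upper quartile all 30 signs and all 9 calls were kept.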

Other observations

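Among genes that read the calcium signal, the kinase genes Camk2a (123, 85.1 and 46.7 CPM in TCP, GelMA and GelMA-PSS) and Camk2b (9.42, 5.89 and 3.5 CPM) were more than 2-fold lower in GelMA-PSS than in TCP, with log2 differences of -1.32 and -1.24 after correction for length and GC content, whereas Camk2g (179.5, 189.7 and 201 CPM) was not. Over the 14 calcium sensor genes, all tested, 2 were more than 2-fold lower in GelMA-PSS than in TCP (3.13% of all genes were), none was lower than in GelMA by that amount and none was higher, and the corrected medians were -0.07 to GelMA and -0.21 to TCP.

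Of 8 genes of membrane excitability 5 were tested. Scn4a, the sodium channel that carries the action potential in skeletal muscle, lay more than 2-fold under both controls in GelMA-PSS, at 133 CPM in TCP, 90.7 in GelMA and 38 in GelMA-PSS. Its corrected log2 difference to GelMA was -0.70. The pump-inhibiting peptide gene 1810037I17Rik, at 24.6, 25.2 and 51.3 CPM, was 1.00 above GelMA and 1.03 above TCP on the log2 scale. After the correction the differences were 0.48 and 0.61. Of all genes tested, 3.72% were more than 2-fold higher in GelMA-PSS than in TCP as measured.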
